A study of Mus musculus with 5 samples.

Results

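The genes described here are the BMP ligands Bmp4 and Bmp7, the related ligands Nodal and Gdf11, the Nodal inhibitors Lefty1 and Lefty2, and the 4 Id genes, Id1 to Id4. They were taken as a named set of 10 genes out of the 19897 genes with a matched probe on the arrays, and every probe whose transcript accession belonged to one of the 10 genes was used. Bmp4 had 2 such probes and the other genes had 1 each. The RNA came from mouse embryonic stem (ES) cells during their differentiation into spinal motor neurons, and it was hybridised to one-colour microarrays, on which the brightness of a spot reports the abundance of 1 transcript.

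There were 5 samples with 1 array each, so no value here has a biological replicate and no test between time points was possible. The ES sample was wild-type male ES cells before any treatment. The Day2 sample was embryoid bodies (EBs, floating aggregates of differentiating ES cells) of the same genotype 8 hours after retinoic acid (RA) was added on differentiation Day2. The Day3 and Day4 samples were EBs 1 and 2 days after RA addition, and the Day7 sample, labelled as motor neurons within EBs, was taken 5 days after it. RA was given together with activation of the Sonic hedgehog (Shh) pathway, which ventralises neural tissue, from day 2 to day 5 according to the labels. The labels do not name the ES line, they name EBs as the tissue and no cell sort, and a change in the share of a cell type cannot be told apart from a change in RNA per cell.

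BMPs and Nodal are secreted ligands of the TGF-β family that signal through paired serine/threonine kinase receptors. BMP receptors activate Smad1, Smad5 and Smad9, whereas Nodal and Gdf11 act on Smad2 and Smad3, and the Lefty proteins are feedback inhibitors of Nodal. Id proteins lack a DNA-binding domain and sequester the E-protein partners of proneural bHLH factors, and their genes are classical targets of BMP signalling, so the family links dorsal signals in the neural tube to the timing of neuronal differentiation.

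Levels are given as log2 of the processed spot signal after quantile normalization across the 5 arrays. A gene is compared with itself across arrays only, since the brightness of 2 different probes cannot be ranked. The scanner software gave an error of about 0.139 on the log2 scale for a typical spot, which makes the error of a difference between arrays about 0.19. This error is technical, and differences within 2 such errors are named below as not separated. A change of at least 2-fold from ES was counted as raised or lowered, as a fixed rule of size.

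The arrays differed in quality. On the Day2 array 86.7% of the probes were well above background against 57.5% to 65.7% on the other arrays, and the Day7 array lay on another slide than the other 4. The 8 ES cell markers were well above background on all 5 arrays; their summed linear signal was highest on ES, at 49524 against 5685 to 15532 on the others, though Nanog was highest on Day4 and Zfp42 on Day2. The 4 primed-epiblast markers, Fgf5 and Otx2 among them, were highest on ES. On Day7, 6 of 6 measured motor neuron markers were more than 2-fold above ES, as were 6 of 6 pan-neuronal and 6 of 6 floor plate markers. The median change of all genes from ES lay between -0.07 and 0.06, but it moved to -0.12 on Day3, -0.11 on Day4 and -0.35 on Day7 when each array was shifted to its 75th percentile in place of quantile normalization. With that shift the share of raised genes among all genes past 2-fold went from 43.9% to 70.2% for Day2 and from 58.2% to 45.9% for Day3.

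All 10 genes were well above background on all 5 arrays, with no saturated spot. From ES to Day2, 2 of the 10 genes were raised (Bmp7 and Lefty1), where 8.82% of all genes were, and 5 were lowered (Bmp4 and the 4 Id genes), where 11.3% of all genes were. From ES to Day3, 2 were raised (Bmp7 and Gdf11) beside 14.2% of all genes, and 5 were lowered (Bmp4, Lefty2, Id1, Id2 and Id4) beside 10.2%. From ES to Day4, 3 were raised (Bmp7, Gdf11 and Id3) beside 15.4%, and 4 were lowered (Bmp4, Nodal, Lefty1 and Lefty2) beside 14.2%. From ES to Day7, 2 were raised (Bmp7 and Id4) beside 23.2%, and 5 were lowered (Bmp4, Nodal, Lefty1, Lefty2 and Id1) beside 24.4%. The 4 comparisons share the ES array, so they do not stand on their own. The median log2 change of the 10 genes was -1.32, -0.78, -0.23 and -1.18 on Day2, Day3, Day4 and Day7, against medians of all genes of 0, 0.06, 0.01 and -0.07.

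**Figure D1:**
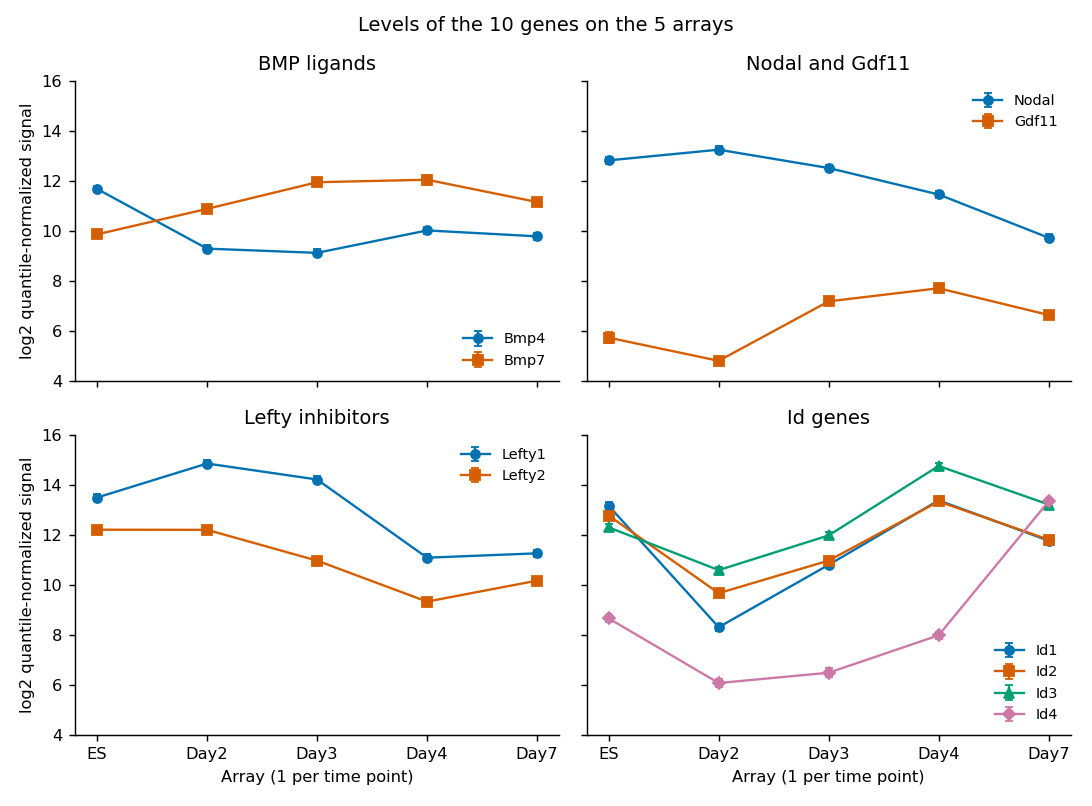
Log2 quantile-normalized signal (y axis) of the 10 genes on the 5 arrays (x axis, 1 array per time point), in panels by role; error bars are the scanner's error of 1 spot. Id1, Id2 and Id3 have their lowest points on Day2 and are higher on Day4 than on Day3, with Id1 on Day4 not separated from ES, Id4 has its highest on Day7 at 13.35, and Nodal and both Lefty genes are lower on Day4 and Day7 than on ES; heights of different genes are not comparable.

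The 2 BMP ligands went in opposite directions from ES. Bmp4, which patterns ectoderm, mesoderm and the dorsal neural tube, measured 11.68 on ES, 9.29 on Day2, 9.12 on Day3, 10.02 on Day4, and ended at 9.78 on Day7. Its level was highest on ES and lower on the 4 later arrays, 5.24-fold on Day2 and 5.89-fold on Day3, then 3.16-fold on Day4 and 3.73-fold on Day7. In the main setting the Day2 and Day3 levels were not separated, nor were Day4 and Day7, with a step of -0.24. Without normalization the latter step was 1.09, past 2-fold in the other direction. The second Bmp4 probe was not well above background on any array, with processed signals between 5.05 and 8.51, and averaging it in brought the Day3 and Day4 changes to -0.85 and -0.43, inside 2-fold.

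Bmp7, a BMP of the roof plate and the developing kidney among other tissues, measured 9.86 on ES, 10.88 on Day2, 11.95 on Day3, 12.05 on Day4, and ended at 11.16 on Day7. It was lowest on ES, and the Day3 and Day4 levels, which were not separated from each other, were the highest after normalization. Without normalization the step from Day3 to Day4 was -0.41 in place of 0.10, more than 2 scanner errors. That from Day4 to Day7 then turned from -0.89 to 0.42, and Day7 at 11.63 was not separated from Day3 at 11.62. In the main setting Day2 and Day7 were not separated either. Against ES it was 4.25-fold higher on Day3, 4.55-fold higher on Day4 and 2.45-fold higher on Day7. The Day4 change was 1.15 without normalization in place of 2.19. The Day2 change of 2.03-fold sat at the threshold and was 0.92 on the log2 scale, inside 2-fold, with the 75th percentile shift.

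Nodal, which maintains the epiblast and induces mesendoderm, measured 12.82 on ES, 13.25 on Day2, 12.52 on Day3, 11.46 on Day4, and ended at 9.73 on Day7. In the main setting the first 3 arrays were within 2-fold of each other and ES and Day3 were not separated, with a change of -0.31. That change was -0.60 with the 75th percentile shift, more than 2 scanner errors, and -1.11 without normalization, where the step from Day2 to Day3 was -1.44, both past 2-fold. Day4 was 2.58-fold below ES and Day7 was 8.56-fold below it, and Day7 was the lowest array. The Day4 change was -2.64 without normalization in place of -1.37. The step from Day4 to Day7 was -1.73 in the main setting and -0.39, within 2 scanner errors, without normalization.

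Gdf11, an Activin-type ligand that acts in rostrocaudal patterning of the spinal cord, was a dim probe, with processed signals from 53.9 on ES to 126 on Day7. Its normalized level was 5.72 on ES, 4.80 on Day2, 7.18 on Day3, 7.70 on Day4, and ended at 6.63 on Day7. Day4 was highest in the main setting, 3.94-fold above ES, and Day3 was 2.74-fold above ES. Without normalization the step from Day4 to Day7 turned from -1.07 to 0.08. The place of Day2 depended on the scaling, since the change from ES was -0.93 after quantile normalization and 0.50 after the 75th percentile shift. The Day3 rise was 0.88 with normexp background correction and 0.91 without normalization, both inside 2-fold, and the Day7 change of 0.91 was inside 2-fold in the main setting.

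Both Lefty genes, which are direct targets of Nodal signalling as well as its inhibitors, were lower on the late arrays. Lefty1 measured 13.50 on ES, 14.86 on Day2, 14.22 on Day3, 11.09 on Day4, and ended at 11.27 on Day7. It was 2.57-fold higher on Day2 than on ES, and then 8.76-fold lower on Day4 than on Day3. That drop ranked 21 among the falls of 15624 genes with a value in that step, and it was between -3.56 and -3.07 on the log2 scale over all settings. Day4 and Day7 were not separated in the main setting, with a step of 0.18 that was 1.45 without normalization, and both were more than 4-fold below ES.

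Lefty2 measured 12.21 on ES and on Day2, 10.97 on Day3, 9.33 on Day4, and ended at 10.17 on Day7. ES and Day2 did not differ beyond the scanner error, Day2 being the array where Lefty1 was 2.57-fold above ES. Lefty2 was 2.36-fold below ES on Day3, 7.36-fold below it on Day4 and 4.11-fold below it on Day7. Without normalization its Day4 change went from -2.88 to -4.11 and the step from Day4 to Day7 from 0.84 to 2.17, past 2-fold. Lefty1 on Day3 was 1.65-fold above ES, and without normalization it was below ES, at -0.19 on the log2 scale.

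Markers of the primed epiblast were also lower on the arrays where Nodal and the Lefty genes were lower. Of the 4, 2 were past 2-fold below ES on Day2 and 4 on Day3 and Day4, with medians of -3.74 and -4.96 on these later arrays, and Otx2 is also in the list of Nodal targets. Their summed linear signal was 161483 on ES, 89526 on Day2, 23719 on Day3, 10751 on Day4, and ended at 7594 on Day7. The part of epiblast cells in the levels of Nodal and the Lefty genes was not tested.

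**Figure D2:**
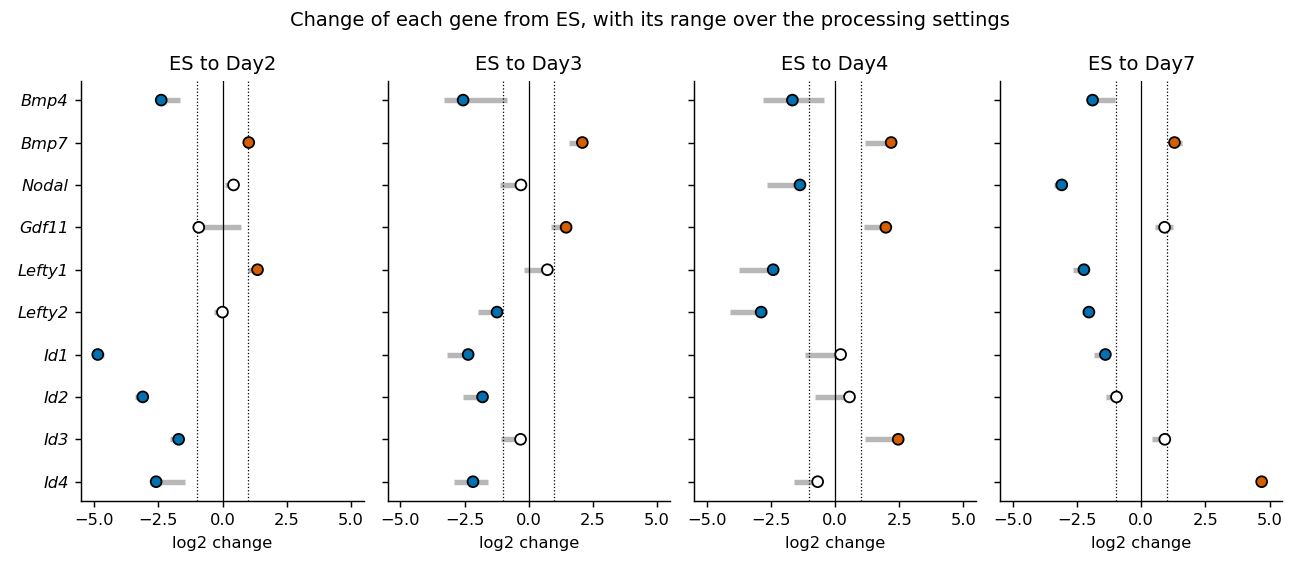
Log2 change from ES (x axis) of each gene (y axis) on the Day2, Day3, Day4 and Day7 arrays; circles are the main setting, orange where raised and blue where lowered at least 2-fold (dotted lines), and grey bars span the lowest and highest value over the processing settings. The Id1 change on Day2, at -4.86, and the Id4 change on Day7, at 4.69, lie farthest from 0, and the bars of Gdf11 and Lefty2 on Day2, Lefty1 on Day3, and Id1 and Id2 on Day4 cross 0.

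Id1, Id2 and Id3 were lowest on Day2 and were more than 2-fold higher on Day4 than on Day3, under all settings that gave these changes. Id1 measured 13.17 on ES, 8.31 on Day2, 10.81 on Day3, 13.39 on Day4, and ended at 11.77 on Day7. The Day2 level was the lowest, 29.1-fold below ES, and this fall ranked 23 among those of 18315 genes with a value. It stayed between -5.00 and -4.61 on the log2 scale over all settings.

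Id1 was then 5.65-fold higher on Day3 than on Day2 and 5.98-fold higher on Day4 than on Day3. ES and Day4 were not separated, and the sign of their difference turned from 0.22 to -0.22 with the 75th percentile shift and to -1.18, past 2-fold, without normalization. Day7 was 2.64-fold below ES.

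Id2 measured 12.78 on ES, 9.67 on Day2, 10.98 on Day3, 13.34 on Day4, and ended at 11.81 on Day7, in the same order of arrays as Id1 in the main setting. Without normalization Day4 was lower than ES, with a change of -0.78 in place of 0.56. It was 8.62-fold below ES on Day2 and 3.49-fold below it on Day3, and 5.15-fold higher on Day4 than on Day3. The Day7 change of -0.96 was just inside 2-fold in the main setting and past it, at -1.37, with the 75th percentile shift.

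Id3 measured 12.30 on ES, 10.59 on Day2, 11.98 on Day3, 14.77 on Day4, and ended at 13.22 on Day7. Its Day2 level, 3.27-fold below ES, was a smaller fall than those of Id1 and Id2. ES and Day3 were not separated in the main setting, with a change of -0.32, which was -0.58 with the 75th percentile shift, more than 2 scanner errors, and -1.08, past 2-fold, without normalization. On Day4 it was 5.51-fold above ES, with the other 3 Id genes within 2-fold in the main setting, and it was 2.92-fold lower on Day7 than on Day4. Without normalization the Day4 change of Id3 was 1.16 in place of 2.46, and that of Id4 was -1.61 in place of -0.68. From Day3 to Day4 the rises of Id3, Id1 and Id2 ranked 37, 58 and 79 among those of 15624 genes.

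Id4, which is expressed in neural progenitors and astrocytes, measured 8.66 on ES, 6.07 on Day2, 6.49 on Day3, 7.98 on Day4, and ended at 13.35 on Day7. It was lowered on Day2, as the other Id genes were, and on Day3, as Id1 and Id2 were, 6.01-fold and 4.51-fold below ES, and these 2 arrays were not separated in the main setting. The Day2 change of -2.59 was -1.70 with the 75th percentile shift, -1.65 with normexp and -1.47 without normalization. Day7 was far above the rest, 25.8-fold above ES and 41.3-fold above Day4, while the other 3 Id genes were 2.89-fold to 3.06-fold lower on Day7 than on Day4. Without normalization these 3 falls were inside 2-fold, at -0.31 for Id1, -0.23 for Id2 and -0.36 for Id3. The Day7 change from ES was between 4.49 and 4.85 over all settings. Which of Day2 and Day3 was lower depended on the scaling, and the processed signal before normalization was 160 on Day2 and 59.2 on Day3.

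In the main setting Id2, Id3 and Id4 were all lowest on Day2 and higher on Day4 than on Day3, Id4 by 2.82-fold. The bases upstream of these 3 Id genes are shown because only Id4 of them was highest on Day7. They are the 250 bases before the annotated start from RefSeq, on build GRCm38.p6, each read 5′ to 3′ on the strand of the gene; 6 of the 10 genes had an entry. Capitals mark every match to GGCGCC, a GC-rich sequence bound by Smads downstream of BMP receptors, and to CAGAC, the core of the classical Smad-binding element, on either strand (the reverse complement of CAGAC reads GTCTG).
Id2, chr12:25096093-25096342, minus strand: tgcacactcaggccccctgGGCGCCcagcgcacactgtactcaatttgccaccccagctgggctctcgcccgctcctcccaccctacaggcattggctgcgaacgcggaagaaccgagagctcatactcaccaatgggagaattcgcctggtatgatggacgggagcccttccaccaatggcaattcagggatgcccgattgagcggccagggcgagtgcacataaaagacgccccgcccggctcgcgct
Id3, chr4:136143572-136143821, plus strand: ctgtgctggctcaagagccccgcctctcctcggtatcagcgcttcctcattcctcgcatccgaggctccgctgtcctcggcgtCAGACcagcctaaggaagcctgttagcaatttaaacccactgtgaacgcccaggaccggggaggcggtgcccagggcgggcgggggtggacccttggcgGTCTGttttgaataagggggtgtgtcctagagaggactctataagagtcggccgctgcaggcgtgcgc
Id4, chr13:48260866-48261115, plus strand: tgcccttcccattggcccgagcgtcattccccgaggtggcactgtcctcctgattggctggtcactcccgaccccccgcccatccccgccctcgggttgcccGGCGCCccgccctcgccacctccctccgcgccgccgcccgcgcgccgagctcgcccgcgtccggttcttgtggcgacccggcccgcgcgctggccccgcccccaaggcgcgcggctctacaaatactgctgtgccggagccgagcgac

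Id2 and Id4 each held 1 GGCGCC, which 9.59% of 32841 upstream windows of the same length held, and Id3 held none. Id3 held 2 matches to CAGAC, which 42.2% of all windows held, and Id2 and Id4 held none. The E-box CANNTG, the type of site that bHLH dimers bind, was found once in Id2 and not in Id3 or Id4, against 66.2% of all windows. CCAAT was found 3 times in Id2 and 2 times in Id4, against 33.9% of windows with at least 1. The core promoter element TATAAA and the nuclear receptor site AGGTCA were in none of the 3 windows, against 12.4% and 14.0% of all windows. All motifs were searched on both strands, and no match overlapped that of another motif. These windows were rich in G and C, from 62.8% in Id2 and Id3 to 75.6% in Id4 beside a median of 52.4% over all windows. A match describes the letters only, and neither binding nor its effect was measured.

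The profiles nearest to each gene were found by the root mean square (RMS) difference of log2 levels over the 5 arrays, after subtraction of each gene's mean, among 13469 other genes well above background throughout. The profile nearest to Id1 was that of Id2, at 0.60, followed by Fas and Gbp3. Id1 was the 13th nearest to Id2 and Id3 the 34th, behind Csta2, Olfr123 and Aldh1a1. Id3 was nearest to Gbp6, Car14 and Phlda1, and Id4 was nearest to Ngfr at 0.35, then Hey1 and Dclk1. Bmp4 was nearest to Nmi, Maff and Mycn, Bmp7 to Syde1 at 0.11, Mgst1 and Scarf2, and Gdf11 to Casc1, Msx3 and Creb3l2. Nodal was nearest to Pir, Blvrb and Gcnt1, Lefty1 to Galr2, Rgs14 and Bcl6b, and Lefty2 to Dcaf12l1, Pipox and Slc9b2. With 5 points from single arrays these distances are descriptions only.

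Several marker lists moved on the arrays where the Id genes did. On Day7, where Id4 was highest, the summed linear signal of 6 glia and radial glia markers was 182956 against 1512 on ES, 740 on Day2, 806 on Day3 and 1905 on Day4. Nearly all of it came from Fabp7 (17.45 on the log2 scale), Fabp7 and Sox9 were past 2-fold, and Gfap and S100b, which mark astrocytes, were not above background. Summed neuron markers were 351522 on Day7 against 13138 on ES, and summed floor plate markers 83494 against 702. The Day7 slide moved with them, and the part of any of these in the Id4 level was not tested.

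On Day4, where Id3 was highest, 3 of 6 surface ectoderm markers were past 2-fold above ES (Krt8, Krt18 and Trp63) and Krt14 was below it at -1.16, and the summed signal of the list was 90707 against 30993 on ES, 22511 on Day2, 46584 on Day3 and 22352 on Day7. Most of the Day4 sum came from Krt18, at 16.1 on the log2 scale, and Krt8, at 13.7, while Krt5 and Tfap2a were within 2-fold of ES. Trp63 was higher on Day7, at 12.7, than on Day4, at 12.3. Of 10 dorsal neural tube markers only Msx1 was past 2-fold above ES on Day4, at 10.29 against 7.76 on ES, while Zic1 had a change of -1.80, Atoh1 one of -1.81 or lower, and Wnt3a, Pax7 and Atoh1 were not above background on Day4. Of 7 mesoderm and endoderm markers with a value, Gata6 and Sox17 were past 2-fold above ES on Day4, and Eomes at -1.59 and T (brachyury) at -2.93 or lower were below it, with a median of -0.46 over the list, while its summed signal was 2718 against 1321 on ES. On the same array 4 of 6 neural progenitor markers were raised and none was lowered, with a median of 2.14 and a summed signal of 24166 against 9621 on ES. Of 4 floor plate markers with a value 3 were raised, with a sum of 5534 against 702, and of 6 motor neuron markers 4 were raised and 1 was lowered, with a sum of 2194 against 1282. The 4 raised motor neuron markers lay close to the threshold, Isl1 at 1.01, Slc18a3 at 1.02, Chat with a bound of 1.08 and Isl2 at 1.19. The part of these cell types in the Id levels was not tested. On Day2, where all 4 Id genes were low, 65.6% of the 96 probes for synthetic ERCC control RNA were well above background against 4.17% to 9.38% on the other arrays, and the part of this in the Day2 levels was not tested. On the same array 5 of 8 ES cell markers were lowered, with a median of -1.66 and Klf4 at -3.96, as were 2 of 4 primed-epiblast markers, and 4 of 6 neural crest markers, with a median of -1.31. Their part in the Day2 levels of the Id genes was not tested.

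**Figure D3:**
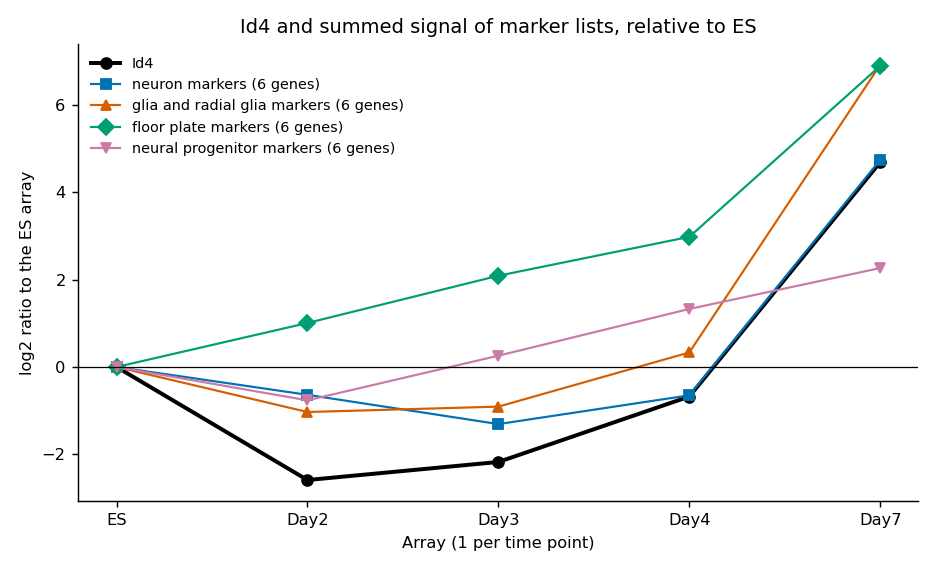
Log2 ratio to the ES array (y axis) on the 5 arrays (x axis) of the Id4 level and of the summed linear signal of 4 lists of 6 marker genes each. On Day7 Id4 reaches 4.69, the neuron markers 4.74, the glia and radial glia markers 6.92, the floor plate markers 6.89 and the neural progenitor markers 2.27. Most of the neural progenitor sum on Day7 came from Nkx6-1 and Nes, while Pax6 and Olig2 were past 2-fold below ES, at -1.60 and -2.98. The part of these cells in the Id4 level was not tested.

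The other genes of the pathways were read from 12 lists of 106 genes. From ES to Day7, 29 of the 94 with a value were raised (30.9%) and 29 were lowered (30.9%), beside 23.2% and 24.4% of all genes. On Day2 the counts were 10 raised and 23 lowered of 99, on Day3 17 and 17 of 90, and on Day4 28 and 20 of 94. Over all genes the shares raised and lowered were 8.82% and 11.3% on Day2, 14.2% and 10.2% on Day3, and 15.4% and 14.2% on Day4. These counts moved with the scaling: they were 17 raised and 16 lowered on Day2 with the 75th percentile shift, and without normalization 23 and 12 on Day2, 7 and 33 on Day3, and 10 and 41 on Day4. With normexp they were 7 and 14 on Day2, 7 and 14 on Day3, and 18 and 18 on Day4. The log2 changes given next are from ES to Day7 unless another array is named.

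Among the other BMP-type ligands, 3 of 8 with a value were raised and 1 was lowered. Bmp2, the closest relative of Bmp4, was within 2-fold of ES on Day7 but 2.90 higher on Day3 and 4.04 higher on Day4, on the log2 scale. Bmp8b had a change of -4.35, and Gdf9, an oocyte growth factor, had a change of 1.93. Among Activin and TGF-β type ligands 3 of 8 were raised, led by Tgfb2 at 4.66 and Inha, the inhibin α subunit, at 4.17. Gdf3, a Nodal-related ligand of pluripotent cells, had a change of -4.07, and Tgfb1 one of -1.52.

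Receptor genes past 2-fold numbered 0 on Day2, 1 on Day3 and 3 on Day4, and there were 5 by Day7, of 11 with a value. On Day7 the type I receptors Tgfbr1 and Acvr1b had changes of 2.05 and 1.94 and the type II receptor Acvr2a 2.19. Bmpr1a, Bmpr1b, Bmpr2 and Acvr1 stayed within 2-fold at -0.52, 0.68, 0.58 and 0.87. On that array 4 were raised and 1 was lowered (Amhr2, the anti-Müllerian hormone receptor, at -2.46). Of 6 co-receptors with a value, 3 were lowered and 1 was raised (Tgfbr3, at 1.68). Tdgf1 (Cripto), the Nodal co-receptor, measured 14.14 on ES, 11.88 on Day2 and between 9.99 and 10.30 afterwards, so that it was past 2-fold below ES on Day2, when Nodal was within 2-fold of ES. Its relative Cfc1 was not above background on Day7, which gave a change of -3.28 or lower.

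Of 14 extracellular antagonists with a value, 6 were raised and 3 lowered on Day7. The lowered ones were follistatin (Fst, -1.86), chordin (Chrd, -1.26) and noggin (Nog, -1.05), all secreted BMP or Activin antagonists. The raised ones included Bmper and Chrdl2, whose ES probes were not above background, with bounds of 2.85 and 2.58. The proteases that mature or release the ligands held 2 raised genes of 5, Bmp1 (tolloid) at 3.90 and Pcsk5 with a bound of 2.75, and Pcsk6, a convertase of Nodal, had a change of -2.03.

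Of the Smad genes, 2 of 6 were raised and none was lowered. Smad1 had a change of 1.52, and Smad9 was above background on Day4 and Day7 only, with a bound of 1.96 on Day7. Of 8 intracellular inhibitors 4 were lowered and none was raised on Day7, with a median of -1.31. The inhibitory Smad genes differed, as Smad7 had a change of -3.17 and Smad6, which is itself a BMP target, was within 2-fold at 0.97 after a value of 1.85 on Day4.

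Of 8 further BMP targets, 3 were raised and 2 were lowered on Day7. Hey1, a bHLH repressor, had a change of 4.61, with levels of 9.53, 8.15, 8.04, 9.66 and 14.14 from ES to Day7. Msx1 was highest on Day4, with a change of 2.54, and was within 2-fold on Day7. The list as a whole had a median of -0.03.

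Of 8 Nodal target genes with a value, 7 were lowered and none was raised on Day7, with a median of -2.35. Eomes, Gsc and T are also counted among the mesoderm and endoderm markers and Otx2 among the primed-epiblast markers, so these lists are not separate. On Day4, 4 of them were lowered and none was raised. Otx2, of forebrain and epiblast, had the lowest value, -5.07, followed by Foxh1, the Smad partner in Nodal responses, at -3.92 and Eomes, a mesendoderm factor, at -3.07. T and Gsc had only bounds, -2.55 or lower and -1.96 or lower, so their places in this order are not known. Foxh1 was within 2-fold of ES on Day2 and Day3, at 0.31 and 0.62, and had a change of -1.73 on Day4.

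The E proteins, which Id proteins bind, were within 2-fold of ES on Day2 and Day3, and of the 3 genes Tcf3 passed it narrowly on Day4, at 1.08, and Tcf4 on Day7, at 1.02. Of the proneural and related bHLH genes that Id proteins oppose, 4 of 9 were lowered and none was raised on Day2, beside 11.3% and 8.82% of all genes; Neurog2 and Neurod4 were among the 9 but too dim for a fold. On Day3, 3 of 8 were lowered and Neurog2 was raised, with a bound of 1.01, beside 10.2% and 14.2%. Neurog3 was within 2-fold of ES on both, at 0.93 and 0.30. On Day4, 5 of 9 were raised, among them Neurog2, which drives motor neuron differentiation, with a bound of 5.36, and 4 were lowered: Olig1 at -2.28, Neurod1 at -1.98, Neurog3 at -1.70 and Atoh1 at -1.81 or lower. Olig2, the factor of motor neuron progenitors, measured 11.47 on Day4 against 10.34 on ES and 7.35 on Day7. On Day7, 4 of 9 were raised, led by Neurog3 at 4.94, and 5 were lowered, led by Olig1 at -4.50.

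**Figure D4:**
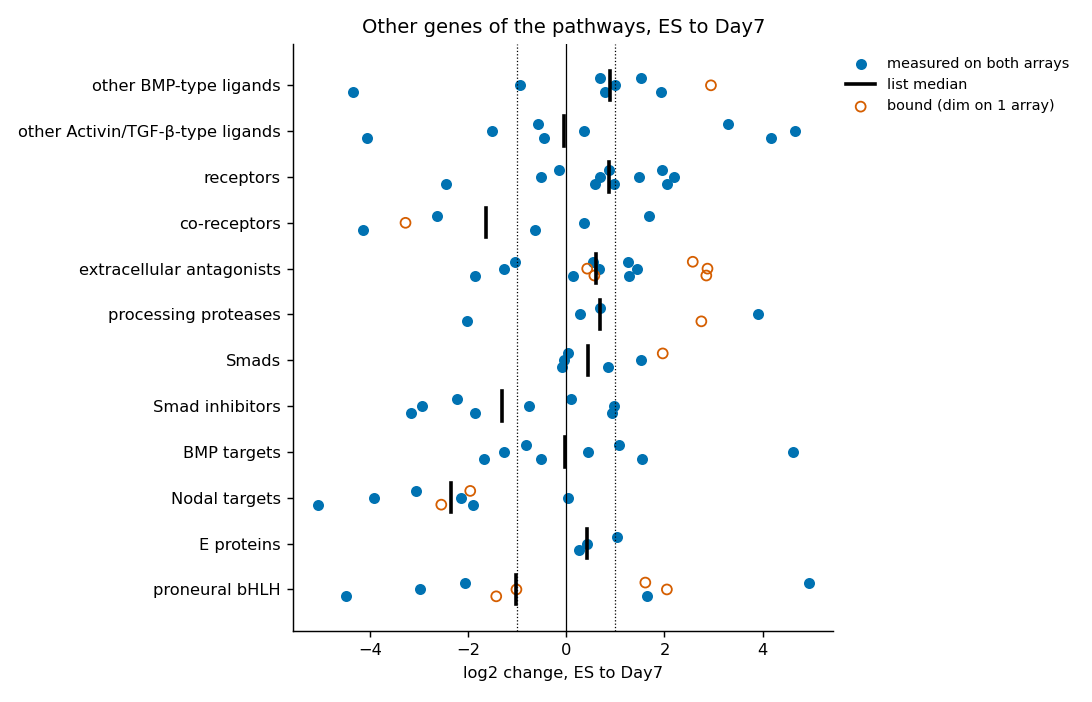
Log2 change from ES to Day7 (x axis) of the other genes of the pathways with a value, in 12 lists (y axis); filled points were well above background on both arrays, open points on 1 array only and are bounds, black bars are list medians and dotted lines mark 2-fold. The median of the Nodal targets is -2.35 and that of the Smad inhibitors -1.31, against -0.07 for all genes.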

How the data were processed

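Total RNA of 5 samples was labelled with Cy3 and hybridised to Agilent one-colour mouse arrays. The intensity of each spot was deposited as the scanner output of Agilent Feature Extraction 10.5.1 (version per the labels), background-subtracted and detrended, with flags for outliers and for spots well above background. The authors also deposited a table of log2 values, which equals log2 of this intensity minus the 75th percentile of each array, within 0.01 for at least 99.995% of probes. Here log2 signals were quantile-normalized (limma 3.58.1, R 4.3.3), because quantile analysis is named for these arrays, and spots of a probe were averaged after outlier removal.

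Transcript accessions matched 26300 of 55681 probes to 19897 symbols, and the probe with the highest mean stood for a gene. A probe not well above background on 1 array gave a bound against the lowest well-above-background value of that array, and one dim on both gave no value. Where the other array did not exceed that bound there was no fold, and the gene was counted as within 2-fold, with a change of 0. This held for 2452 of 18315 genes with a value from ES to Day2, 34 of 15201 to Day3, 345 of 15835 to Day4 and 81 of 15835 to Day7, and these genes stand in the denominators, shares and medians of lists and of all genes. With 1 array per time point there were no tests, and precision is limited by the number of arrays. The calculation of changes and calls was tested on simulated shifts added to the ES values, and that of bounds on made-up values. The other steps were not tested in this way. The 10 genes, the 12 pathway lists and the 12 marker lists were chosen with earlier results of these data known. Genes named from the pathway lists are mainly the 3 largest rises and falls past 2-fold from ES to Day7 or the largest on Day3, and others were named after their values were seen. A few genes that this rule would name are not reported here. Alternatives were the 75th percentile shift, no normalization, normexp correction (offset 50), the deposited table, the positive-and-significant flag, no filter, detection on both arrays, the mean of all probes, and thresholds of 1.5-fold and 4-fold. Centring on the median of all genes, leaving the Day2 array out of the normalization and the steps between neighbouring time points were added after seeing the data.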

Additional observations from a re-analysis of the deposited data

Results flagged for a closer look

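On the Day2 array 65.6% of the 96 probes for ERCC control RNA, which is not of mouse origin, were well above background, against 7.29% on ES, 4.17% on Day3, 9.38% on Day4 and 7.29% on the Day7 array. These probes lie outside the comparisons of the report, and whether control RNA was added to any sample is not given in the sources used here.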

How the results depend on the processing

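No paired analysis was possible because there was 1 array for each time point. For the same reason no array could be left out of a group, and a slide block was not run since Day7 alone lay on its slide. The second Bmp4 probe alone gave no value. Of 28 changes from ES past 2-fold, all 28 kept their direction and 24 stayed past 2-fold under the 9 or 10 settings with log2 changes. The exceptions were Bmp7 on Day2, Gdf11 on Day3, and Bmp4 on Day3 and Day4. Of these settings the positive-and-significant flag, no filter and detection on both arrays could not move these genes, which were well above background throughout. The mean of all probes could move Bmp4 alone, and the deposited table repeats the 75th percentile shift. Raised genes on Day2 numbered 1 in place of 2 with the 75th percentile shift, with the deposited table and with normexp. Raised genes on Day3 numbered 1 in place of 2 without normalization and with normexp. Without normalization 7 genes were lowered on Day3 in place of 5, with Nodal and Id3 added, 6 on Day4 in place of 4, with Id1 and Id4 added, and 6 on Day7 in place of 5, and 3 were raised on Day7 in place of 2. With the 1.5-fold threshold 4 genes were raised on Day7. With the 4-fold threshold the raised genes were 0 on Day2, 1 on Day3 and 1 on Day7, and the lowered genes 3 on Day3, 2 on Day4 and 3 on Day7, by construction of the stricter limit. Without normalization the Day4 to Day7 change of Gdf11 turned from -1.07 to 0.082, that of Bmp4 from -0.24 to 1.09 and that of Bmp7 from -0.89 to 0.42, and the cause was not tested. Signs of changes inside 2-fold turned for Gdf11 and Lefty2 on Day2, Lefty1 on Day3, and Id1 and Id2 on Day4, where the turned value of Id1 was -1.18, past 2-fold, without normalization. From Day2 to Day3 the Bmp4 step turned from -0.17 to 0.82 with the mean of all probes, and the Id4 step from 0.41 to -1.43 without normalization. From Day3 to Day4 the Bmp7 step turned from 0.10 to -0.41 without normalization. The share of raised among all genes past 2-fold moved from 52.0% to 43.7% on Day4 and from 48.7% to 39.1% on Day7 with the 75th percentile shift. Without normalization it was 82.9% on Day2, 16.2% on Day3 and 8.12% on Day4, with 53.4% on Day7, and the median of all genes moved to 0.20, -0.63, -1.06 and 0. With centring it was 44.4% on Day3. Dim probes such as that of Gdf11 are limited by signal over background.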

Other observations

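Marker lists whose Day7 counts are not given above had the following values from ES to Day7. Of 8 ES cell markers 6 were lowered, with a median log2 change of -3.60, and 4 of 4 primed-epiblast markers were lowered, with a median of -4.64. Of 6 neural progenitor markers 4 were raised and 2 lowered (Pax6 and Olig2). Of 8 dorsal neural tube markers with a value 4 were lowered and none was raised, and of 7 mesoderm and endoderm markers 5 were lowered. Of 6 surface ectoderm markers 1 was raised and 2 were lowered. Of 6 neural crest markers 1 was raised and 1 lowered, and of 4 endothelial markers 1 was raised and 2 were lowered.

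Gdf5, a BMP-type ligand of developing joints, measured 11.66 on the Day2 array, against 6.89 on ES, 6.83 on Day3, 6.79 on Day4 and 8.41 in the Day7 sample. Its change from ES to Day2 was 4.77 on the log2 scale, in the direction opposite to Bmp4, and it was chosen for mention after its values were seen. Neurog3, a proneural factor, measured 13.30 on Day7 against 6.65 on Day4.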
